A study of Mus musculus with 12 samples.

Results

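The probes described here are 450 oligos of 60 bases, out of 90752 on the array. Most of them, but not all, carry one repeated sequence in either of its 2 orientations. The rule that picks them uses sequence alone and no signals, but it was chosen with earlier results of these data known. Probes that share 25 or more consecutive bases on the same strand were linked, and the third and the sixth largest of the resulting groups were taken. The larger, with 71.8% of the 450 members, is called the forward set and the smaller, with 28.2%, the reverse set. Of the forward set, 311 probes (96.3%) share a stretch of 15 bases with the reverse complement of a reverse probe, and 115 reverse probes (90.6%) do so with a forward probe. On the same strand, 12 forward and 11 reverse probes share 15 bases with the other set.

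RNA came from the distal segment of the crushed sciatic nerve of C57Bl6 mice aged about 2 months, taken at day 0, day 3, day 7 or day 14 after the crush. The labels describe one operation for all groups, day 0 included: a crush of the right sciatic nerve at the upper thigh under chloral hydrate, with a ligature left to mark the site. No uninjured group is named. Each day had 3 arrays, each array held RNA pooled from 6 mice, and 72 mice were used in all, so p-values measure the spread between pools. Slide 1 held replicates 1 and 2 of day 0 and of day 3. Slide 2 held replicate 3 of both days and replicates 2 and 3 of day 7, and slide 3 held replicate 1 of day 7 and all of day 14. Spots well above background made up 64.2% to 79.5% of an array, none was saturated, and the precision is set by how few arrays each day has. The files pair no probe with a gene, so the tissue was not checked against its marker genes here, and fewer cells of a type cannot be told apart from less RNA per cell.

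The commonest stretch of 16 bases in each set was extended base by base through the commonest overlapping stretches held by 3 or more members. The result is called the joined sequence of the set and shows what the sets have in common. The joined forward sequence of 92 bases and the joined reverse sequence of 137 bases share a run of 74 bases as reverse complements. This sequence has the form of B1, a short interspersed element of the mouse genome that descends from 7SL RNA; it was recognised from general knowledge and not matched to a repeat library. B1 copies end in an A-rich tail, carry an internal promoter for RNA polymerase III in their first part, and lie in either orientation within introns and non-coding transcripts, where RNA polymerase II copies them along with their host. A probe made of such a repeat can pair with labelled RNA from any copy that is close enough in sequence. The forward set reads in the orientation that runs towards the A-rich tail: 215 of its probes (66.6%) hold AAAAA, against 6 reverse probes (4.72%) and 12.8% of all probes. The labels call the labelled material cRNA, which is as a rule complementary to the sample RNA, so that a probe reads RNA of its own strand; the strand was not tested here.

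Each probe was aligned to the joined sequence of 137 bases and to its reverse complement, with a score that counts matched bases less mismatches and gaps. The joined sequence was also cut into 3 parts of about equal length, numbered in the forward orientation so that the last part ends in the tail. A total of 319 forward probes scored 22 or more in the forward orientation and none in the other, and 126 reverse probes scored so in the reverse orientation and none in the forward one. The remaining 4 forward probes and 1 reverse probe scored 22 or more in neither. The forward set lies mostly near the tail: 287 of its probes had their centre in the last part of the element, 36 in the middle part and none in the first. The reverse set is spread over it, with 46, 50 and 31 probes in the first, middle and last part. GC content had a median of 45% in the forward set and 55% in the reverse set, against 41.7% in all probes. A forward probe was linked to 1 to 100 others of its set (median 14) and a reverse probe to 1 to 36 (median 9), so members share sequence and are not independent measurements.

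Highly linked probes show the centre of each set, with capitals for the run that matches the joined sequence of their set:
MOUSELNCRNA_20051 (forward): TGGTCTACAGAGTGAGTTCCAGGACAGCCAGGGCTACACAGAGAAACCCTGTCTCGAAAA
MOUSELNCRNA_74010 (reverse): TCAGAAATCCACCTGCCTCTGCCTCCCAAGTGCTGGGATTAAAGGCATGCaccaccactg
MOUSELNCRNA_61050 (reverse): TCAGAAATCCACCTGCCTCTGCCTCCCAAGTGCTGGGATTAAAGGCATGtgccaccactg

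Probes of opposite sets that mirror each other let the strands be compared over nearly the same bases. In the pairs shown, the capitals mark the 53 and 51 bases that are reverse complements of each other:
MOUSELNCRNA_54985 (forward, first pair): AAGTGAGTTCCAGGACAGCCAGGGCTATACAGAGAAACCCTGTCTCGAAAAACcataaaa
MOUSELNCRNA_49342 (reverse, first pair): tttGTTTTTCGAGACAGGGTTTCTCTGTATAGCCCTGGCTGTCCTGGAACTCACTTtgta
MOUSELNCRNA_31822 (forward, second pair): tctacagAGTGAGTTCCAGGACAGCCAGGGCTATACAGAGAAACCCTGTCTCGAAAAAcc
MOUSELNCRNA_52909 (reverse, second pair): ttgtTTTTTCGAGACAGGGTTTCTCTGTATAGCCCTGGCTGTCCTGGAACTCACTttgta

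Signals are given as log2 of the processed intensity, scaled so that each array had the same 75th percentile. The forward set was among the brightest probes of the array. Averaged over the 12 arrays, its members had a median log2 signal of 17.42 (quartiles 15.95 and 17.89), and 227 of them (70.3%) were among the 1000 brightest of the 90752 probes. The reverse set had a median of 11.94 (quartiles 10.16 and 14.20) and no member among the 1000 brightest. The median of all probes tested was 8.11. A total of 264 forward probes were brighter than the brightest reverse probe. The signal of a probe depends on how well it binds as well as on the RNA, so the distance between the sets is no ratio of RNA amounts. Every reverse probe and 322 forward probes stood well above background on each of the 12 arrays, and these were tested. The exception, the forward probe MOUSELNCRNA_19274, was well above background on 3 arrays only and had a mean log2 signal of 2.86.

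Within each set the members with a closer match to the element were brighter. In the forward set the median log2 signal was 11.91 for the 36 probes with an alignment score of 22 to 29, 16.74 for the 104 probes at 30 to 39, 17.61 for the 122 probes at 40 to 49 and 18.07 for the 57 probes at 50 to 60. The reverse set ran from 8.89 for 16 probes at 22 to 29 to 14.17 for 45 probes at 50 to 60. Score and signal had Spearman's rho of 0.78 over the forward and 0.68 over the reverse probes, a description of probes that share sequence and arrays. GC content, which differed along the element, had a rho of 0.51 and 0.77 with the signal. The reverse probes of the first part of the element had a median of 14.56, those of the middle part 11.73 and those of the last 9.66.

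At day 3 most reverse probes rose and few forward probes were called. Of the reverse probes 115 rose (90.6%) and 1 fell, where 21.7% of all 62803 probes tested rose and 22.7% fell (limma, Benjamini-Hochberg adjusted p below 0.05 over all probes tested). Their median log2 change was 0.60, or 1.51-fold, against 0.03 for all probes tested. Of the 322 forward probes tested, 2 rose and 3 fell, with a median change of 0.04. Their changes followed brightness, with Spearman's rho of 0.86 between mean signal and change. The median change was -0.11 below a mean log2 signal of 10, -0.22 at 10 to 12, -0.27 at 12 to 14 and -0.21 at 14 to 16. It was -0.09 at 16 to 17, 0.08 at 17 to 18 and 0.16 above 18. These small changes rest on few arrays. The upper quartile of the forward set was 17.76 and 17.73 at day 0 and 17.74 and 17.81 at day 3 on slide 1. On slide 2 it was 18.17 at day 0 and 18.51 at day 3. The median change of the set was -0.12 without replicate 3 of day 3 and 0.16 without replicate 3 of day 0. The changes of the reverse set were small and alike, with quartiles of 0.55 and 0.66. No reverse probe and 1 forward probe differed by more than 1 on the log2 scale.

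The median of the reverse set on each array shows the same step. At day 0 it was 11.75, 11.54 and 11.65, and at day 3 it was 12.18, 12.12 and 12.57, with replicates listed from 1 to 3 here and below. Every day 3 array lay above every day 0 array. The median of the forward set was 17.38, 17.38 and 17.75 at day 0 and 17.31, 17.38 and 17.93 at day 3, and the days overlapped. Taken probe by probe, all 3 day 3 arrays lay above all 3 day 0 arrays for 120 reverse probes (94.5%) and 3 forward probes (0.929%), where 25.1% of all probes tested did so.

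The rise of the reverse set at day 3 was seen on both slides that held both days. On slide 1 the set's median differed by 0.50 between the days, and on slide 2, with 1 array of each day, by 0.92; the forward set's median differed by -0.04 and 0.17. A fixed slide block in the fit gave 120 rises and 2 falls in the reverse set, where 28% of all probes rose, and all 115 rises called without the block were among them. In the forward set 2 rose and 54 fell with the block, where 27.9% of all probes fell. The count of 116 reverse probes called moved with single arrays: 39 were called without replicate 3 of day 3, with a median change of 0.44, and 51 without replicate 2 of day 0, with a median change of 0.56. The 5 calls in the forward set became 27 without replicate 3 of day 0, 2 without its replicate 1, 1 without its replicate 2 and 2 without replicate 1 of day 3. Quantile normalization gave 113 rises and 2 falls in the reverse set (median change 0.51) and 2 rises and 39 falls in the forward set (median change -0.09).

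The rise was spread over the whole length of the element. In the first part 42 of 46 reverse probes rose, in the middle part 48 of 50 and in the last part 25 of 31, with median log2 changes of 0.57, 0.65 and 0.60. It was also alike at each brightness: the median change was 0.62 for the 31 reverse probes with a mean log2 signal below 10, 0.64 for the 33 between 10 and 12, 0.63 for the 30 between 12 and 14 and 0.57 for the 33 between 14 and 16. The brightest of these overlap in signal with part of the forward set. At a mean log2 signal of 14 to 16, 33 of 33 reverse probes rose, while of 36 forward probes 2 fell and none rose (limma; in the whole forward set 3 rose and 13 fell at an unadjusted p below 0.05, where 25% and 25.6% of all probes did). With the fixed slide block 23 of these 36 forward probes were called lower.

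The most linked reverse probe, MOUSELNCRNA_74010, had log2 signals of 14.75, 14.58 and 14.64 at day 0 and 15.07, 15.03 and 15.54 at day 3. The days did not overlap, and the change was 0.55 (SE 0.16, limma adjusted p = 0.0179). It returned to 14.86, 14.58 and 14.82 at day 14, and its difference from day 0 of 0.10 (SE 0.16, limma adjusted p = 0.647) was not called. The highly linked forward probe MOUSELNCRNA_20051 stood at 18.12, 18.07 and 18.56 at day 0 and 18.11, 18.19 and 18.93 at day 3. On both days its highest value was that of slide 2, and the difference of 0.16 (SE 0.23, limma adjusted p = 0.63) was not called.

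The largest called changes at day 3 among probes whose days did not overlap are shown by sequence, so that their match to the element can be seen, with capitals for the longest run shared with it:
MOUSELNCRNA_23354 (reverse, largest rise): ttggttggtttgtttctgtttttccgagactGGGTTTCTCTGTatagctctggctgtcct
MOUSELNCRNA_8213 (reverse, the one fall): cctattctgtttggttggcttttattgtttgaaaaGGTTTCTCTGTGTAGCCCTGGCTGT
MOUSELNCRNA_87688 (forward, largest rise): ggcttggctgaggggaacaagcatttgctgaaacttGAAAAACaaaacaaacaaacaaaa
MOUSELNCRNA_35405 (forward, largest fall): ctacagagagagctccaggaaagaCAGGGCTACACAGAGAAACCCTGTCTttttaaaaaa

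MOUSELNCRNA_23354 went from 9.00, 8.77 and 8.52 at day 0 to 9.70, 9.69 and 9.79 at day 3, a log2 change of 0.96 (SE 0.19, limma adjusted p = 0.00148). At day 7 it was at 9.23, 9.77 and 9.07, still above every day 0 value, with the largest rise of the reverse set on that day too (0.59, SE 0.19, limma adjusted p = 0.0249). At day 14 it stood at 8.74, 8.40 and 8.72, within or below the day 0 range. MOUSELNCRNA_8213 went the other way, from 9.53, 9.40 and 9.28 to 9.10, 8.99 and 8.69, a change of -0.47 (SE 0.13, limma adjusted p = 0.0107). In the forward set MOUSELNCRNA_87688, which has 1 link and shares a run of only 7 bases with the element, went from 10.77, 10.73 and 11.06 to 12.19, 12.01 and 12.83, a change of 1.49 (SE 0.19, limma adjusted p = 8.44e-05). Its sequence ends in an A-rich stretch, and the bases through which it joined the set are not given here. MOUSELNCRNA_35405, with 31 links, changed by -0.30 (SE 0.09, limma adjusted p = 0.0168), from 16.12, 16.19 and 16.23 to 15.80, 15.91 and 15.93.

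The strand gap, the forward median less the reverse median of one array, was narrower on every later array than on any day 0 array. It is free of the array's scaling factor. At day 0 it was 5.63, 5.84 and 6.11 on the log2 scale, at day 3 it was 5.13, 5.27 and 5.36, at day 7 it was 5.38, 5.48 and 5.52, and at day 14 it was 5.34, 5.43 and 5.39. The means were 5.86 ± 0.24, 5.25 ± 0.12, 5.46 ± 0.07 and 5.39 ± 0.05 (SD, n = 3 each). As ratios of signal these are 58.0-fold, 38.1-fold, 44.0-fold and 41.8-fold. The changes from day 0 were -0.61 at day 3, -0.40 at day 7 and -0.47 at day 14, and no later array overlapped with day 0. No p is given for this value, since the sets were chosen with earlier results of these data known.

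The change of the gap from day 0 had the same direction within each slide that held day 0 and a later day. The gap also differed between slides, but with so few arrays of a day on each, slide and pool cannot be told apart. The day 0 array on slide 2 had the widest gap, 6.11, and within that slide the gap was narrower by 0.75 at day 3 (log2 change -0.75) and by 0.61 at day 7 (-0.61). Within slide 1 the change at day 3 was -0.54. No slide held both day 0 and day 14, and a fit with a fixed slide term put the change at day 14 at -0.53. Between the later days the gap moved little: from day 3 to day 7 the arrays did not overlap and the mean changed by 0.21, but with the slide term the change was 0.07, and from day 7 to day 14 it was -0.07 in all and 0.01 within slide 3.

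The mirror pairs shown also had a narrower gap on every later array than on any day 0 array. In the first pair, MOUSELNCRNA_54985 and MOUSELNCRNA_49342, the gap was 6.16, 6.39 and 6.51 at day 0, 5.77, 5.89 and 5.97 at day 3, 5.90, 6.00 and 6.11 at day 7, and 5.84, 6.05 and 5.89 at day 14. The reverse probe MOUSELNCRNA_49342 rose by 0.66 at day 3 (SE 0.22, limma adjusted p = 0.0325), while its forward partner differed by 0.18 and was not called. In the second pair, MOUSELNCRNA_31822 and MOUSELNCRNA_52909, the gap was 6.41 ± 0.06 at day 0 and 5.91 ± 0.05 at day 3 (SD, n = 3 each). Its reverse probe MOUSELNCRNA_52909 differed by 0.67 and missed the threshold (SE 0.25, limma adjusted p = 0.0506).

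A total of 1605 pairs of a forward and a reverse probe share 25 or more bases on opposite strands, made from 193 forward and 67 reverse probes. The forward probe was the brighter in 1600 pairs at day 0 and in 1599 at day 3. The gap was narrower at day 3 than at day 0 in 1574 pairs (98.1%), with a median change of -0.50. At day 14 it was narrower than at day 0 in 1346 pairs (83.9%), with a median change of -0.28. Probes recur among these pairs, so the counts describe the sets and are not independent trials. By position, the mean gap in the middle part of the element went from 6.21 at day 0 to 5.64 at day 3, then 5.97 at day 7 and 6.03 at day 14. In the last part it went from 7.98 to 7.37, 7.69 and 7.65. In both parts every day 3 array lay below every day 0 array, while day 7 and day 14 overlapped with day 0. For probes outside the sets that align to the element, described further on, the gap was 2.87 ± 0.19 at day 0, 2.33 ± 0.14 at day 3, 2.78 ± 0.21 at day 7 and 2.96 ± 0.11 at day 14 (SD, n = 3 each). There too every day 3 array lay below every day 0 array, day 7 and day 14 overlapped with day 0, and the day 14 mean was not below that of day 0.

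The comparisons of day 7 and day 14 use the same day 0 arrays as that of day 3. In both, most calls among the members were falls of forward probes. At day 7, 81 of 322 forward probes fell and 2 rose, where 24% of all probes tested fell and 20.4% rose, so its share of falls was near that of all probes. The set's median change was -0.02, against -0.11 for all probes tested. Of the reverse probes 5 rose and 4 fell, with a median change of 0.31. The reverse set's array medians were 11.83, 12.28 and 11.92, each above every day 0 array. Under quantile normalization 43 rose and 2 fell in the reverse set. The 83 calls in the forward set were 50 and 46 without replicates 1 and 2 of day 0, and 51 and 53 without replicates 1 and 3 of day 7. The 9 calls in the reverse set were 2 without replicate 2 of day 0, 34 without replicate 3 of day 3 and 5 without replicate 2 of day 7. The fixed slide block gave 60 falls and 1 rise in the forward set, where 20.7% of all probes fell and 16.8% rose, and 52 of those falls were called without the block too. In the reverse set it gave 2 rises and 1 fall.

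At day 14, 108 forward probes fell and 1 rose, where 29% of all probes tested fell and 19.4% rose. The median change of the forward set was -0.30, or 0.81-fold, against -0.13 for all probes. All 3 day 14 arrays lay below all 3 day 0 arrays for 203 forward probes (62.8%), where 34.7% of all probes tested did so. Most of these falls were lost under the fixed slide block, which called 12 forward probes lower, all of them among the 108, and 1 higher, where 9.9% of all probes fell and 6.63% rose. The median change of the forward set was -0.23 with the block, against -0.30 without it. Day 14 lay on slide 3 alone and day 0 on slides 1 and 2, and the block joins them through a single day 7 array. No reverse probe rose at day 14 and 6 fell (limma; 3 rose and 8 fell at an unadjusted p below 0.05, where 22.5% and 34.3% of all probes did), and with the block none was called. The reverse set's 6 calls were 11 without replicate 3 of day 3, and quantile normalization gave 6 rises and 4 falls. Its array medians, 11.88, 11.64 and 11.87, overlapped with those of day 0. Among 88 tested forward probes of which no pair shares 25 bases 54.5% were called at day 14, and in the tighter group of 160 that links at 30 bases leave 12.5% were. Probes with more links were also brighter (Spearman's rho 0.70 over the forward set), and the part of shared sequence or signal in this difference was not tested. Quantile normalization shifts the median change of all probes at day 14 from -0.13 to 0.01, and under it 110 forward probes fell and 1 rose, with a median change of -0.19.

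The later falls of the forward set lay mostly among its dimmer members. Below a mean log2 signal of 10, 5 of 10 probes tested fell at day 14, and at 10 to 12, 14 of 19. At a mean log2 signal of 12 to 14, 16 of 17 probes fell at day 14, and at 14 to 16, 35 of 36 fell, with median changes of -0.86 and -0.63. At 16 to 17, 32 of 41 fell (median -0.45). At 17 to 18, 6 of 149 fell (median -0.26), and of the 50 probes above 18 none was called (limma; median -0.12; in the whole forward set 125 fell at an unadjusted p below 0.05, where 34.3% of all probes did). At day 7 the classes from 12 to 14 upwards had 16 of 17, 34 of 36, 13 of 41, 0 of 149 and 0 of 50 that fell. The fixed slide block called 28 of the 36 probes at 14 to 16 lower at day 7 and 8 of them at day 14. In the other classes, dimmest first, the block called 1, 4, 10, 15, 2 and 0 probes lower at day 7. At day 14 these counts were 1, 1, 2, 0, 0 and 0, so most day 14 falls were lost in these classes. The members with a weaker match to the element are the dimmer ones, as given above. Of 36 probes with an alignment score of 22 to 29, 25 fell at day 14, and of 57 probes at 50 to 60 none did. No spot was saturated, and whether signals this high respond to RNA as lower ones do was not tested.

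The largest called changes of the later days came from probes with 1 to 4 links, shown with capitals for the run shared with the element:
MOUSELNCRNA_83659 (forward, largest rise at day 7 and day 14): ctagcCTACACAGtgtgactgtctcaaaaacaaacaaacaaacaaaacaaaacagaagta
MOUSELNCRNA_52759 (forward, largest fall at day 7 and day 14): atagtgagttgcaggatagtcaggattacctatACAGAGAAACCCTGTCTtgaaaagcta
MOUSELNCRNA_17022 (reverse, largest fall at day 7): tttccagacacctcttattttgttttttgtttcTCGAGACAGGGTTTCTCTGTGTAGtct
MOUSELNCRNA_26473 (reverse, largest fall at day 14): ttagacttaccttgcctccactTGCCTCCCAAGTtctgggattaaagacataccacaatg

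MOUSELNCRNA_83659, with 1 link and a run of 8 bases, climbed from 5.34, 5.25 and 5.31 at day 0 to 6.58, 6.35 and 6.64 at day 7 and 6.95, 6.92 and 6.80 at day 14. Its changes were 1.22 (SE 0.10, limma adjusted p = 3.89e-06) and 1.59 (SE 0.10, limma adjusted p = 1.70e-06). The slide block left them at 1.20 and 1.51. MOUSELNCRNA_52759 followed the slides: its day 0 values were 13.14 and 13.25 on slide 1 and 11.61 on slide 2, and its day 3 values 12.76 and 12.86 on slide 1 and 11.11 on slide 2. Its change at day 14 was -1.49 (SE 0.48, limma adjusted p = 0.0277), which the slide block brought to -0.31. MOUSELNCRNA_17022 went from 6.67, 6.50 and 6.10 to 5.46, 5.70 and 5.40 at day 7, a change of -0.90 (SE 0.15, limma adjusted p = 0.000844). MOUSELNCRNA_26473 changed by -0.86 at day 14 (SE 0.23, limma adjusted p = 0.0107) and by -0.06 with the slide block; its day 0 values were 9.37 and 9.32 on slide 1 and 8.59 on slide 2.

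Between the later days few members were called. From day 3 to day 7, 22 reverse probes fell (17.3%) and none rose (limma; none at an unadjusted p below 0.05 either). Of all probes 18.6% fell and 15.7% rose, so the set's share of falls was near that of all probes. Among the 22, 17 had risen at day 3, as had 90.6% of the whole set, and both comparisons use the day 3 arrays. In the forward set 17 fell and 1 rose. The fixed slide block called 2 reverse probes, with a median change of -0.32 against -0.29 without it, and a random slide block 9. In the forward set the fixed block called 5 (median change -0.24, against -0.08 without it). The counts also moved with single arrays. The 22 reverse calls were 7 and 12 without replicates 1 and 2 of day 3, and 7, 51 and 8 without replicates 1, 2 and 3 of day 7. The 18 forward calls were 52 without replicate 3 of day 0, 3, 3 and 66 without replicates 1, 2 and 3 of day 3, 3 and 2 without replicates 1 and 3 of day 7, and 10 and 9 without replicates 1 and 2 of day 14. From day 7 to day 14, 1 forward probe rose and 1 reverse probe fell, where 5.61% of all probes rose and 4.35% fell. Over all 4 days the F test called 95 reverse probes (74.8%) and 98 of 322 forward probes (30.4%), where it called 71.1% of all probes tested.

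Probes outside both sets that carry part of the element were described in the same way. They were picked by their match to the joined sequence of the reverse set and read on the same arrays. Some share a run of 24 bases with a member, so they are no independent check. A total of 976 such probes aligned in the forward orientation with a score of 22 or more and 388 in the reverse one. At day 3, 21.7% of all probes tested rose and 22.7% fell. Of the 337 reverse-orientation probes tested, 115 rose at day 3 (34.1%) and 16 fell (4.75%), with a median log2 change of 0.38. Of the 951 forward-orientation probes tested, 55 rose (5.78%) and 130 fell (13.7%), with a median of -0.20. The share that rose was higher with a closer match to the reverse strand. It was 43 of 184 (23.4%) at a score of 22 to 29, near the share of all probes. At 30 to 39 it was 51 of 124 and at 40 to 60 it was 21 of 29. On the forward strand it was 39 of 606, 16 of 294 and 0 of 51. Signal differed with the match too, with median log2 signals of 6.64, 7.69 and 9.19 in the reverse-orientation classes. The filter left 184 of 225, 124 of 133 and 29 of 30 of these probes tested, and a dim probe could pass it through a single day. The part of signal in these shares was not tested. Under the fixed slide block 173 reverse-orientation probes rose and 20 fell, against 78 and 444 of the forward orientation. Of all probes 28% rose and 27.9% fell with the block. At day 14, 480 forward-orientation probes fell (50.5%) and 88 rose (9.25%), where 29% of all probes fell and 19.4% rose. Of the reverse orientation 97 fell (28.8%), near the share of all probes, and 19 rose (5.64%). With the block 148 fell and 23 rose in the forward orientation, and 5 fell and 6 rose in the reverse one. Of all probes 9.9% fell and 6.63% rose at day 14 with the block.

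Probes just inside and just outside the linking rule overlapped in signal. The 18 forward probes whose longest shared run was exactly 25 bases had a median log2 signal of 13.25, and the 38 probes left outside with a run of 24 had 14.61. The 11 reverse probes at 25 bases had a median of 8.78 and the 10 outside at 24 bases 8.93, with median day 3 changes of 0.63 and 0.59. Repeated spots of one probe on one array differed by a median of 0.05 on the log2 scale in either set and 0.10 in the other probes tested.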

How the data were processed

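The scanner files hold spot intensity values that the authors made with Agilent Feature Extraction (10.7 per the submitters' processing notes, 10.7.1.1 per the file headers), with background subtraction and detrending on each array and no normalization between arrays. The authors' deposited table of log2 values, whose columns share their quartiles, served as an alternative. How those were normalized is not given in the sources used here. Fits to them gave nearly the same results as quantile normalization (115 reverse probes called at day 3 and a median change of 0.511 in each). The deposited values and quantile normalization therefore do not count as separate alternatives.

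Control and outlier spots were left out, log2 signals of repeated spots averaged, and arrays scaled to a common 75th percentile (9.34). A probe was tested if all its spots were well above background on all 3 arrays of a day. Limma 3.58.1 (R 4.3.3) fitted 1 mean per day to 62803 probes over 12 arrays (8 residual degrees of freedom), with p-values adjusted over all of them. Simulated arrays had 62793 probes, with 50 shifted at each size and no other changed. The comparison of day 3 with day 0 found 0% of those shifted by 0.5 (log2), 60% by 1, 94% by 2 and 98% by 4. There were 7 false calls among 133. In the data 21.7% of probes rose and 22.7% fell at day 3. With so few changed probes the adjustment is stricter, so the simulated rates do not carry over to the data. Alignment used Biopython 1.88.

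The forward set has 323 and the reverse set 127 probes. The members and rules were chosen with earlier results of these data known. Named probes were the most linked ones, the longest mirror pairs, and, per set, direction and comparison with day 0, the largest called change with no overlap between days. Alternatives were other scalings, filters and background correction, the deposited values, slide or replicate number as a block, single slides, other linking rules and leaving out each array. Some probes and sequences that these rules name are not reported here.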

Additional observations from a re-analysis of the deposited data

How the results depend on the processing

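The change of the strand gap from day 0 kept its direction under every alternative run, at -0.75 to -0.48 for day 3, -0.88 to -0.28 for day 7 and -0.71 to -0.35 for day 14. It was -0.61 for day 7 within slide 2, and -0.88 for day 7 and -0.71 for day 14 over members of which no pair shares 25 bases. From day 3 to day 7 the change of 0.21 was 0.069 with slide as a fixed block, 0.073 under linking at 30 bases and turned to -0.21 over members that share no 25 bases. From day 7 to day 14 the change of -0.07 turned to 0.079 under quantile normalization and with the deposited values, to 0.17 over members that share no 25 bases and to 0.0050 with the slide block and within slide 3, and was -0.0015 under linking at 30 bases and -0.0012 with means. The causes were not tested. With 1 array left out the ranges were -0.72 to -0.48, -0.51 to -0.28, -0.59 to -0.35, 0.14 to 0.26 and -0.11 to -0.04 for day 3, day 7 and day 14 against day 0, day 7 against day 3 and day 14 against day 7.

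The rise of the reverse set at day 3 (116 called) lost its count within slide 2 alone (3), where the 2 day 7 arrays alone give a spread. Leaving out 1 array gave 39 to 118. The smaller counts moved more. Forward set, day 3 (5 called): 41 under quantile normalization, 42 with the deposited values, 9 with normexp, 3 with no filter, 56 and 26 with slide as a fixed and a random block, 23 and 1 within slides 1 and 2, 0% at 30 bases and 3.41% without shared bases. Forward set, day 7 (83): 1 within slide 2, 3.12% at 30 bases and 48.9% without shared bases. Forward set, day 14 (109): 13 and 57 with slide as a fixed and a random block, 12.5% at 30 bases and 54.5% without shared bases. Forward set, day 7 against day 3 (18): 4 under quantile normalization and with the deposited values, 7 with the other percentile, 5 with no filter, 5 and 6 with the fixed and random block, 1 within slide 2 and 0% at 30 bases. Reverse set, day 7 (9): 45 under quantile normalization and with the deposited values, 19 with normexp, 3 and 4 with the fixed and random block, 0 within slide 2, 0% at 30 bases and 18.2% without shared bases. Reverse set, day 14 (6): 10 under quantile normalization and with the deposited values, 0 and 1 with the fixed and random block, 0% at 30 bases and 15.2% without shared bases. Reverse set, day 7 against day 3 (22): 2 and 9 with the fixed and random block, 0 within slide 2, 3.08% at 30 bases and 30.3% without shared bases. From day 7 to day 14 the single call of the forward set became 0 under quantile normalization, normexp, no filter, the deposited values, each block, within slide 3 and under both linking rules. That of the reverse set became 0 with no filter, each block, within slide 3 and at 30 bases, and was 3.03% without shared bases. With 1 array left out the counts of the forward set ran from 1 to 27, 46 to 89, 74 to 130, 2 to 66 and 0 to 2 over the comparisons in the order above, and those of the reverse set after day 3 from 2 to 34, 4 to 11, 7 to 51 and 0 to 1.

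Same-number arrays of different days deviated from their day means with correlations of -0.30 to 0.59. Those of day 0 and day 3 shared a slide and were at 0.325, 0.449 and 0.59. Different-number arrays of these days on slide 1 were at 0.347 and 0.408. Whether the replicate number pairs the arrays was not settled. With the replicate number as a block 28 forward probes were called for day 7 against day 3, and none of either set for day 14 against day 7. Other counts stayed within 1.5 times, and the change of the strand gap was the same. Linking at 20 bases gave no separate sets and was not run.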

Other observations

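The commonest 15 bases of the forward set, AGAGAAACCCTGTCT, occur in 133 members and in 153 probes of the whole array, while their reverse complement occurs in 24 probes. Among 32851 RefSeq promoter windows (GRCm38.p6, 300 bases each), 26 (0.0792%) hold it on the gene's strand and 20 (0.0609%) on the other. For CCTGCCTCTGCCTCC, the commonest 15 bases of the reverse set, the counts were 46 probes and 12 with its reverse complement, and 4 (0.0122%) and 7 (0.0213%) promoter windows. The motifs do not overlap. These are counts of letters, and nothing follows from them about transcription.

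Linking at 30 bases instead of 25 left a forward group of 160 and a reverse group of 65 probes. Linking at 20 bases joined both sets and others into 1 group of 1052 probes, so the strands cannot be separated by that rule.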
